A study of Homo sapiens with 29 samples.

Results

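In 646 of 2298 well-covered genes of HEK293 cells, the wave of RNA polymerase II (Pol II) moved downstream at every step of the DRB release in THOC5-depleted cells but not in control cells. They are 28.1% of the genes with enough coverage and belong to a table of 4592 genes. A gene was taken when its deposited coverage reached 100 rpm (reads per 1000000) in both series and its wave peak lay farther downstream at each later release time (10, 20, 30 and 40 min) in the depleted series, while the control series failed this order. Because these wave positions chose the genes, the order itself is a description and carries no test.

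HEK293 is a human embryonic kidney cell line. Cells were infected for 4 days with lentivirus carrying a control hairpin (shCtrl) or a hairpin against THOC5 (shTHOC5). Both series then received 100 μM DRB for 3.5 h, washes and fresh medium, and were collected 10, 20, 30 or 40 min after the release. Newly made RNA was marked with 1 mM 4SU. The paper states that this labelling was held at 10 min for every release time. Each condition and time is 1 library from 1 dish, so no replicate error exists, no p-value can be given, and a difference between the series cannot be told apart from a difference between dishes or libraries. THOC5 is not among the listed genes, and its depletion could not be checked in these files.

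DRB inhibits the kinase CDK9 and holds Pol II near the promoter. On its removal Pol II enters the gene body as a wave, and the front of the labelled RNA shows how far it has come. In an undisturbed release the front lies farther from the transcription start site (TSS) the later the cells are collected. THOC5 belongs to the THO complex, which joins nascent mRNA and takes part in its processing and export. The deposited wave peak is a position in a window that opens 2 kb before the TSS and closes 120 kb after it; it is given here in kb from the TSS and -2 kb is therefore the first position of the window.

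The place of the control wave peak that broke the order took 4 forms, and 5 genes show them. HNRNPC, which encodes a nuclear RNA-binding protein that packages pre-mRNA, had its control peak far inside the gene at 10 min. MACROH2A1, the gene of a histone variant of silent chromatin, had its control peak at 20 min a few kb ahead of the later ones. GPR89A, which encodes a Golgi membrane channel, had its control peak at 30 min at the start of the window. DCP1A, a subunit of the mRNA decapping complex, had its control peak at 20 min at the end of the window. UBE2G1, a ubiquitin-conjugating enzyme, had a near peak at 40 min after far ones. The genomic sequence around the positions of MACROH2A1, GPR89A and DCP1A is shown on the coding strand, 5′ to 3′, from GRCh38, 201 bases each, with the 11 bases around the called position in capitals. The 3 windows are chr5:135388116-135388316 (minus strand, intron of MACROH2A1), chr1:145605888-145606088 (plus strand, upstream of GPR89A) and chr3:53227487-53227687 (minus strand, beyond the end of DCP1A and inside TKT).
MACROH2A1: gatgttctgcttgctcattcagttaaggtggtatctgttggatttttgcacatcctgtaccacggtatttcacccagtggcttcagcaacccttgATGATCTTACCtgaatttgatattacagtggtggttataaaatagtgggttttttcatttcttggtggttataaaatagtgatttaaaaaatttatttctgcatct
GPR89A: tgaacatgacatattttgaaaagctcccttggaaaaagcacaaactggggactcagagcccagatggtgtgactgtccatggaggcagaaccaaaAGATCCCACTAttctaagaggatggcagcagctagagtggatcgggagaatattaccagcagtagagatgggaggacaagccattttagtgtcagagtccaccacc
DCP1A: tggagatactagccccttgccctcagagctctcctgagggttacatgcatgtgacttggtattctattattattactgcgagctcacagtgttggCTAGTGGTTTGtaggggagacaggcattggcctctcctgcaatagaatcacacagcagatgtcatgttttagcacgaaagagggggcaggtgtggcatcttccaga

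Thymine, the base copied into the uracil positions that 4SU can replace, made up 40.3% of the MACROH2A1 window and 19.4% of the GPR89A window. Over the 423 genes with a control outlier and a listed width equal to the annotated one, the 1001 bases around the outlier held a median of 30.7% thymine, against 30.6% around the depleted wave peak of the same gene and time. The GC content was 42.8% and 43.0%. Over all places together, the 2 sequences were thus close in base composition. The outlier had more thymine in 219 of the 423 genes, against 360 of 773 such genes among all well-covered genes with control waves out of order. By place, the thymine medians differed in both directions. They were 29.7% against 31.4% depleted at the window start, 30.8% against 30.5% up to 40 kb from the TSS, 31.4% against 30.6% beyond 40 kb and 28.6% against 29.2% at the window end.

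The median of the depleted waves of the 646 genes advanced by a few kb per step. The median depleted peak was called at -0.697 kb after 10 min and at 4.91, 7.18 and 9.84 kb after 20, 30 and 40 min. The control median was 8.13 kb after 10 min and 6.70, 11.5 and 11.0 kb after 20, 30 and 40 min. The control median was therefore lower at 20 than at 10 min and lower at 40 than at 30 min. In the 359 genes that were orderly in both series the control median rose at every step, from 3.01 kb over 7.02 kb and 8.96 kb to 14.0 kb, while the depleted median ran from -2 kb over 4.99 kb and 7.20 kb to 9.34 kb. The depleted course was therefore close in both sets, and the control course was where they differed, as the rule demands. At 10 min the depleted peak was called at the first position of the window in 316 of the 646 genes (48.9%). This share was 50.4% of the genes orderly in both series and 54.2% of all 2298. The control peak of 10 min was there in 140 of the 646 (21.7%). In such genes the first step is counted from the edge of the window. The wide spread of the control positions at 10 and 30 min is visible in the plot of medians and quartiles.

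**Figure D1:**
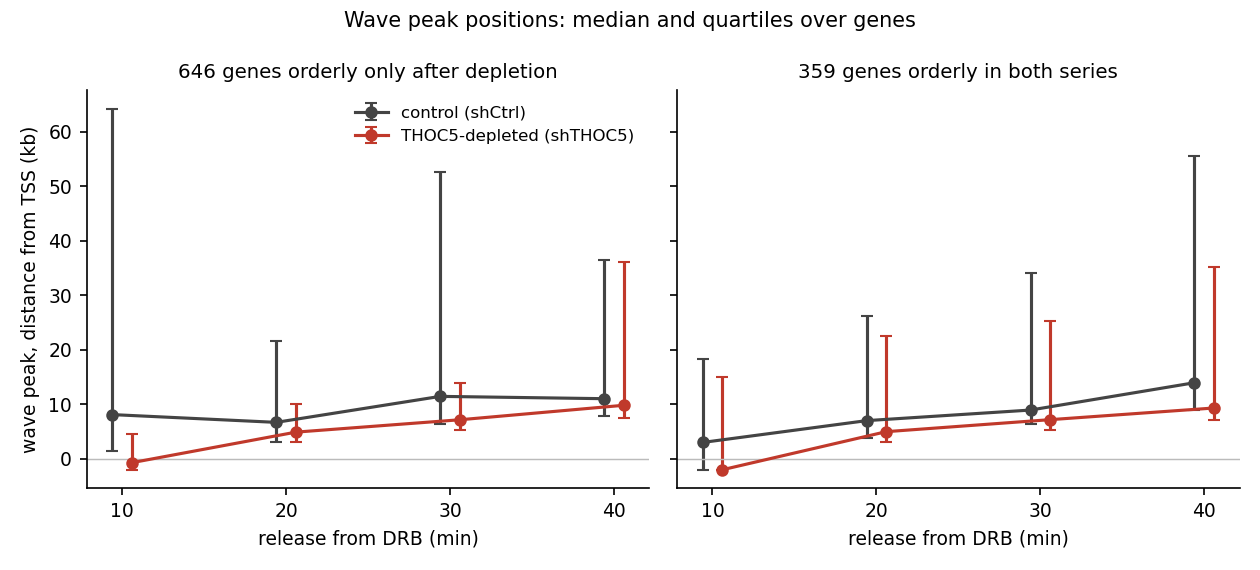
Wave peak position in kb from the TSS against minutes after DRB release, with points at the median and bars from the 25th to the 75th percentile over genes (1 library per point). On the left, in the 646 genes orderly only after depletion, the control quartiles reach 64.3 kb at 10 min and 52.6 kb at 30 min; on the right, in the 359 genes orderly in both series, both medians rise at each step.

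The first and the last control step failed most often. From 10 to 20 min the control wave peak moved upstream in 269 of the 646 genes (41.6%), against 34.0% of all 1829 well-covered genes whose control waves were out of order, these 646 included. From 20 to 30 min it moved upstream in 149 genes (23.1%; 24.3% of the 1829), and from 30 to 40 min in 325 genes (50.3%; 39.5% of the 1829). It stayed at the same position in 71, 22 and 15 genes at these steps (11.0%, 3.41% and 2.32%, against 32.4%, 24.3% and 19.3% of the 1829). In 449 genes (69.5%, against 45.9% of the 1829) only 1 of the 3 steps failed, in 189 genes 2 (29.3%, against 34.6%) and in 8 genes all 3 (1.24%, against 19.6%). The rule gave the mirror image, an orderly series in control cells alone, in 110 genes or 4.79% of the 2298, while 1183 genes were orderly in neither series.

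The control time that broke the order was defined as the 1 time whose removal leaves the other 3 in order. Such a time existed in 141 genes: 10 min in 72 (11.1%, against 8.31% of the 1829), 20 min in 22 (3.41%, against 3.01%), 30 min in 9 (1.39%, against 1.31%) and 40 min in 38 (5.88%, against 3.39%). The definition itself favours 10 and 40 min. Without equal positions, 2 orders of the times give a single outlier at 10 min and 2 at 40 min, but only 1 each at 20 and 30 min. In 303 genes (46.9%, against 28.2% of the 1829) either of 2 neighbouring times could be removed, a swap of neighbours. The swap concerned 30 and 40 min in 143 genes (22.1%, against 11.4%), 10 and 20 min in 84 (13.0%, against 10.1%) and 20 and 30 min in 76 (11.8%, against 6.67%). In 202 genes (31.3%, against 55.8%) no single removal restored the order. Genes without equal positions numbered 564, and the most frequent control order of their times along the gene was 10, 20, 40, 30 min in 139 genes (24.6%, against 17.2% of such genes among the 1829), followed by 10, 30, 20, 40 min in 81 (14.4%, against 11.7%) and 20, 30, 40, 10 min in 54 (9.57%, against 9.22%).

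**Figure D2:**
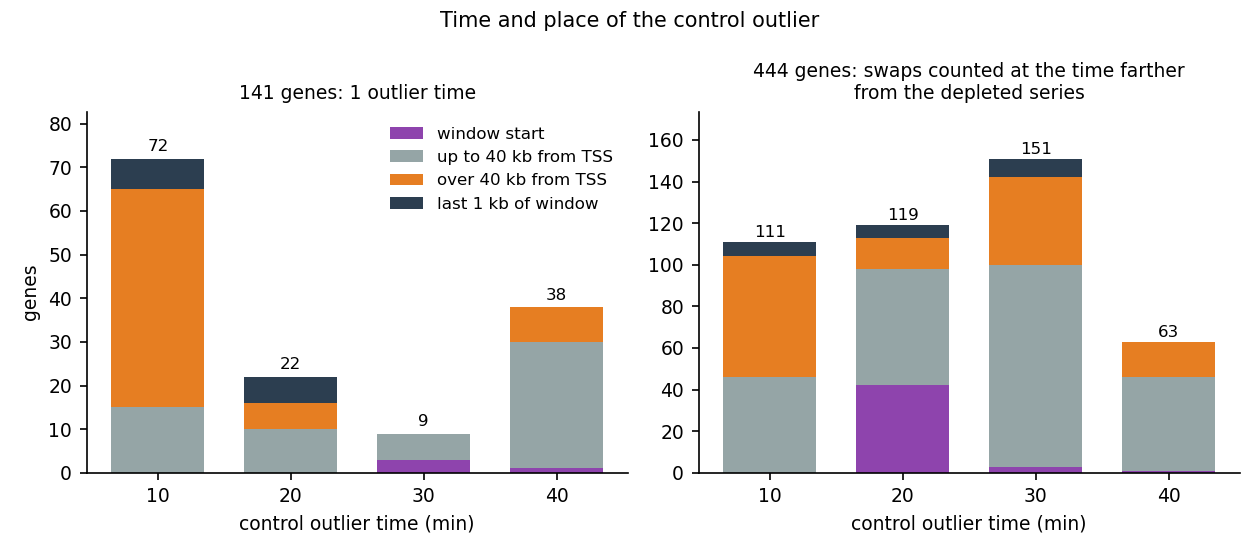
Number of genes by the control time that broke the order (min after release), coloured by where the control wave peak lay in the window. On the left, the 141 genes with 1 outlier time are led by 10 min (72 genes, 50 of them over 40 kb from the TSS); on the right, with swaps counted at the time farther from the depleted series (444 genes), 42 of the 119 genes at 20 min have the control peak at the window start.

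At 10 min the control outlier was mostly a far peak, as it was over all genes with control waves out of order. Of the 72 genes, 50 (69.4%, against 67.1% of the 152 such genes among the 1829) had it over 40 kb from the TSS. It lay within the last 1 kb of the window in 7 (9.72%, against 12.5%) and nearer than 40 kb in 15 (20.8%, against 20.4%). The definition allows no single outlier at the window start at 10 or 20 min and none at the window end at 30 or 40 min. It also puts a 10-min outlier at or beyond the 30-min peak, and a 40-min one at or before the 20-min peak. Over all 646 genes, 234 (36.2%) had the control peak over 40 kb at 10 min, against 40.1% of the 1829 and 83 in the depleted series. At 20 min the 22 outliers were split into 6 far (27.3%, against 41.8% of the 55 among the 1829), 6 at the window end (27.3% in both) and 10 near (45.5%, against 30.9%). At 30 min 3 of the 9 lay at the window start (33.3%, as of the 24 among the 1829) and 6 near (66.7%, against 33.3%). At 40 min 29 of the 38 were near (76.3%, against 67.7% of the 62 among the 1829), 8 far (21.1%, against 27.4%) and 1 at the window start (2.63%, against 4.84%). Together 64 of the 141 were far (45.4%, against 51.2% of the 293 single outliers among the 1829), 60 near (42.6%, against 33.4%), 13 at the window end (9.22%, against 11.6%) and 4 at the window start (2.84%, against 3.75%).

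HNRNPC had the highest coverage of the 646 genes, 4075 rpm in control and 2041 rpm in depleted cells. Its control wave peak lay at 45.8 kb at 10 min and then at 6.20 kb, 8.17 kb and 11.0 kb. In depleted cells the peaks were called at 1.72 kb, 4.41 kb, 5.47 kb and 8.72 kb. Only the 10-min control peak stood apart, by 44.1 kb from the depleted one and at the 3 later times the control peak was slightly ahead. METTL9, which encodes a histidine methyltransferase, had the same form, with control peaks at 43.8 kb, 7.59 kb, 9.70 kb and 11.2 kb and depleted peaks at 4.00 kb, 7.49 kb, 8.45 kb and 10.6 kb. The gene RAB6A, coding for a small GTPase of Golgi transport, had control peaks at 68.2 kb, 9.0 kb, 10.5 kb and 10.8 kb and depleted peaks at 1.48 kb, 4.51 kb, 9.10 kb and 9.23 kb. In these 3 genes the control and depleted courses from 20 to 40 min lay within a few kb of each other.

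The transcriptional coactivator gene EP300, which encodes the histone acetyltransferase p300, had its 10-min control peak at the last position of the window, 120 kb from the TSS and beyond the annotated end of this 87.5 kb gene, inside L3MBTL2. Its later control peaks lay at 6.55 kb, 10.2 kb and 10.4 kb, and its depleted peaks at -2 kb, 5.30 kb, 6.78 kb and 8.39 kb. EIF3H, a subunit of translation initiation factor 3, broke the order by far less. Its control peaks lay at 23.6 kb, 20.6 kb, 22.4 kb and 23.3 kb and its depleted peaks at 16.7 kb, 20.1 kb, 22.9 kb and 24.4 kb.

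At 20 min, MACROH2A1 had control peaks at 8.36 kb, 11.7 kb, 9.01 kb and 9.61 kb against depleted peaks at 2.37 kb, 6.89 kb, 9.33 kb and 9.91 kb. All 4 control peaks thus lay between 8.36 and 11.7 kb, and both series were close at 30 and 40 min. NDUFC2-KCTD14, a readthrough locus over a subunit of mitochondrial complex I, had a step back of only 0.841 kb, with control peaks at 3.36 kb, 5.60 kb, 4.76 kb and 5.42 kb. DCP1A lay far downstream in both series, at 99.1 kb, 120 kb, 102 kb and 120 kb in control cells and at 95.9 kb, 97.9 kb, 99.4 kb and 120 kb in depleted cells, although the annotated gene ends 64.2 kb from its TSS. For this gene all 8 called peaks lay beyond its end.

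At 30 min, USP48, which encodes a deubiquitinase, had its control peak back at -2 kb after 1.14 kb and 3.44 kb, and at 4.28 kb at 40 min. Its depleted peaks rose from -2 kb over 0.511 kb and 2.19 kb to 5.88 kb. GPR89A had control peaks at -2 kb, 2.52 kb, -2 kb and 4.58 kb and depleted peaks at -2 kb, 2.02 kb, 4.84 kb and 6.03 kb. This gene has a near-identical copy, GPR89B, so reads of the pair may not be told apart. At 40 min, UBE2G1 had control peaks at 3.37 kb, 108 kb, 108 kb and 14.2 kb against depleted peaks at -0.554 kb, 6.71 kb, 7.50 kb and 8.99 kb. Removing the 40-min point restored its order, yet the positions far from the depleted series were those of 20 and 30 min.

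**Figure D3:**
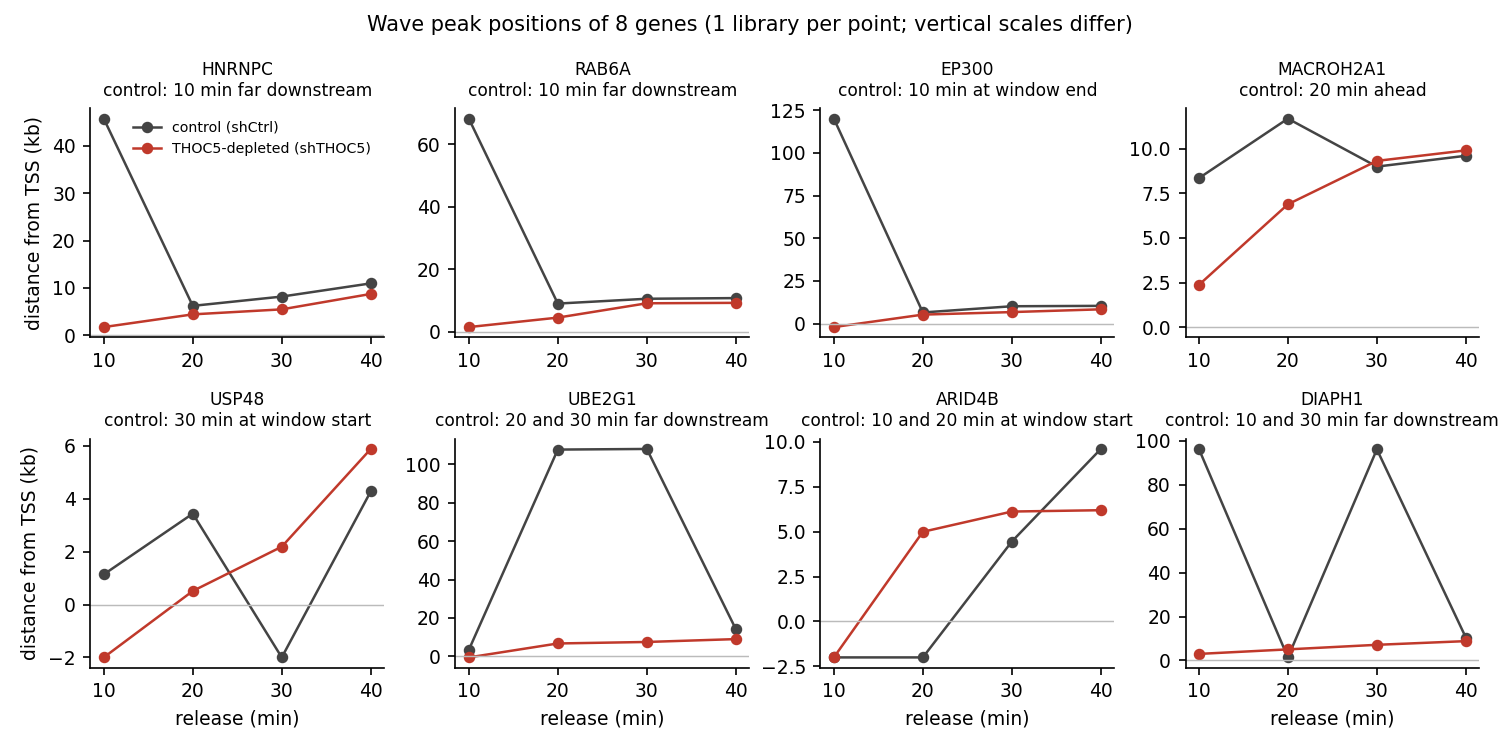
Wave peak position in kb from the TSS against minutes after release in 8 genes, control in grey and depleted in red, 1 library per point and a vertical scale of its own for each gene. The control points of HNRNPC (45.8 kb), RAB6A (68.2 kb) and EP300 (120 kb) at 10 min, of UBE2G1 at 20 and 30 min (108 kb) and of DIAPH1 at 10 and 30 min (96.3 and 96.1 kb) stand far above the depleted course, while in ARID4B the control peak is still at -2 kb at 20 min.

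Swaps of neighbours were led by PCMT1 and GRB2. PCMT1, which encodes a repair enzyme of damaged aspartyl residues, had 2230 rpm in control and 1152 rpm in depleted cells, control peaks at 7.77 kb, 6.50 kb, 9.24 kb and 9.88 kb and depleted peaks at -0.0740 kb, 2.19 kb, 4.54 kb and 7.93 kb. GRB2, an adaptor of receptor tyrosine kinases, had control peaks at 11.1 kb, 8.97 kb, 17.4 kb and 76.3 kb and depleted peaks at 7.58 kb, 10.9 kb, 12.9 kb and 15.0 kb. In both genes the control peaks of 10 and 20 min were exchanged by 1.27 and 2.09 kb, and the far control peak of GRB2 at 40 min left the order unbroken. Among the genes with no single outlier, GNB1, a G protein beta subunit gene, had control peaks at 72.2 kb, 11.5 kb, 82.0 kb and 78.4 kb and depleted peaks at 2.68 kb, 9.96 kb, 12.6 kb and 93.4 kb. Its 20-min control peak was the only one close to the depleted course of 10 to 30 min.

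The outlier by removal was also the time of the largest distance from the depleted series in 92 of the 141 genes: in 63 of 72 at 10 min, 14 of 22 at 20 min, 4 of 9 at 30 min and 11 of 38 at 40 min. At 40 min the removed point was thus seldom the point that differed most between the series. When swaps were assigned to the time farther from the depleted series, 444 genes had an outlier time, namely 10 min in 111 (17.2%, against 15.1% of the 1829), 20 min in 119 (18.4%, against 10.7%), 30 min in 151 (23.4%, against 13.1%) and 40 min in 63 (9.75%, against 5.36%). The assignment favours 20 and 30 min, because these times can belong to more swap pairs than 10 and 40 min. Of these outliers 244 were near (55.0%, against 43.0% of the 809 such outliers among the 1829) and 132 far (29.7%, against 34.4%). The window start held 46 (10.4%, against 16.1%) and the window end 22 (4.95%, against 6.55%).

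The control outlier lay farther downstream than the depleted peak in 312 of the 444 genes and nearer in 132. Of the 444, 303 were swaps, whose direction was fixed by the rule and by the assignment to the farther time. A swap counted at its earlier time was always farther, and one counted at its later time always nearer. At 10 min it was farther in 110 of 111 genes, with a median distance of 17.3 kb; the rule places the depleted 10-min peak before the other 3 and so favours this direction. At 30 min it was farther in 118 of 151 genes (median 3.34 kb), and at 20 min in 74 of 119 (median 1.89 kb). At 40 min it was nearer in 53 of 63 genes, with a median of -2.39 kb; the rule places the depleted 40-min peak after the other 3 and so favours this direction too. Distances over 20 kb occurred in 106 genes, 52 of them at 10 min, and the control peak was the farther one in 90 of them.

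**Figure D4:**
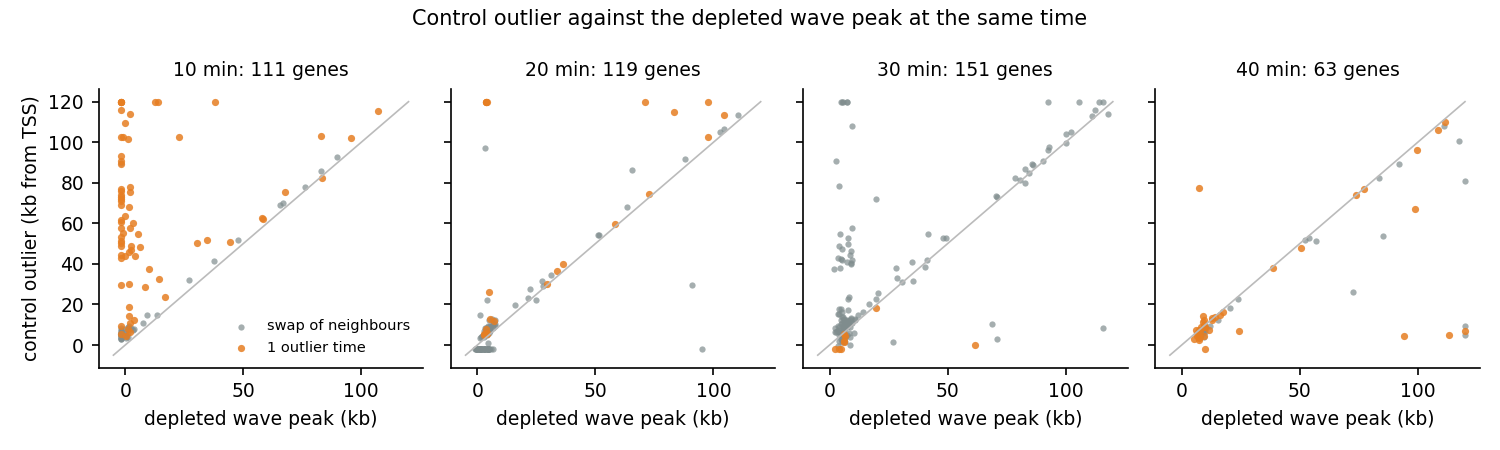
Control outlier position against the depleted wave peak of the same gene and release time, both in kb from the TSS, in the 444 genes with an outlier time (orange, 1 outlier time; grey, swap of neighbours; line, equal positions). At 10 min 110 of 111 points lie above the line, many with a depleted peak near the TSS. At 20 min a row of points sits at the window start, and at 40 min 53 of 63 points lie below the line. For grey points the side of the line was fixed by the rule and the assignment of swaps.

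The window start held most of the equal positions. In 82 genes at least 1 pair of neighbouring control times had the same position, or 12.7% against 36.6% of the 1829, and in 70 of them this was the first position of the window (10.8% of the 646, against 29.0%). The control peak was there at both 10 and 20 min in 68 genes, through 30 min in 16 and at all 4 times in 3 (0.464%, against 12.2%). ARID4B, a chromatin-binding protein gene, had control peaks at -2 kb, -2 kb, 4.45 kb and 9.60 kb and depleted peaks at -2 kb, 4.99 kb, 6.11 kb and 6.19 kb. PTPN11, which encodes the tyrosine phosphatase SHP2, had control peaks at -2 kb, -2 kb, 4.83 kb and 9.34 kb and depleted peaks at -2 kb, 1.65 kb, 2.03 kb and 4.23 kb. In both genes the depleted peak had left the window start by 20 min, and the control peak was the farther one at 40 min. PPP1R12A, the myosin phosphatase targeting subunit gene, stayed at -2 kb in control cells at 10, 20 and 30 min and reached 7.83 kb at 40 min, while its depleted peaks of 20, 30 and 40 min were at 0.146, 2.54 and 5.12 kb.

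The size of the step back reached 122 kb. The largest control step back exceeded 20 kb in 209 genes (32.4%, against 27.0% of the 1829), and 123 of these were the step from 10 to 20 min, while 68 were the last step and 18 the middle one. It was 5 to 20 kb in 69 genes (10.7%, against 9.19% of the 1829) and 1 to 5 kb in 166 (25.7%, against 19.9%). It was under 1 kb in 140 (21.7%, against 14.8%), while in 62 genes (9.6%, against 29.2%) no step led back and positions were only equal. KANSL1 was just inside the rule, with a step back of 2 bp. Just outside the rule, CDC14A and AGPAT4 were orderly in both series by smallest control steps of 2 and 5 bp. Just above the coverage limit were ANKS6 (100.2 rpm in depleted cells) and NFKB1 (100.3 rpm in control cells), and just under it USP12 (99.95 rpm) and RECK (99.79 rpm in control cells).

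DNM2, the gene of the membrane-scission GTPase dynamin 2, was among the narrow cases. Its control peaks lay at 5.77 kb, 5.90 kb, 9.40 kb and 9.39 kb, a step back of 0.0170 kb, and its depleted peaks at 1.99 kb, 5.54 kb, 6.89 kb and 8.91 kb. CNOT1, the scaffold of the CCR4-NOT deadenylase complex, had control peaks at 3.72 kb, 3.57 kb, 5.84 kb and 5.53 kb and depleted peaks at -2 kb, 4.02 kb, 4.23 kb and 5.14 kb. In these genes the control peak stood nearly still between neighbouring times. The smallest depleted step was under 1 kb in 240 of the 646 genes and under 0.1 kb in 23. These counts were not made in other sets.

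Several genes had far control peaks at more than 1 time and at nearly the same place. DIAPH1, which encodes a formin that nucleates actin filaments, had control peaks at 96.3 kb, 1.40 kb, 96.1 kb and 10.4 kb and depleted peaks at 2.99 kb, 5.05 kb, 7.13 kb and 8.81 kb. ZC3H18, a zinc finger protein gene of nuclear RNA turnover, had control peaks at 77.0 kb, 7.67 kb, 76.9 kb and 8.83 kb and depleted peaks at -2 kb, 4.90 kb, 8.23 kb and 9.57 kb. The control positions of both genes alternated between a far place at 10 and 30 min and places near the depleted course at 20 and 40 min. MYH9, the gene of non-muscle myosin IIA, had a far control peak only at 10 min, at 97.1 kb, and then 8.25 kb, 7.39 kb and 14.3 kb. Of the 182 genes with at least 2 control peaks over 40 kb, 122 (67.0%) had a pair of them within 2 kb of each other; among the 1829 this was 551 of 702 (78.5%). Of the 132 far control outliers, 70 (53.0%) had the peak of another library of the same gene within 2 kb, 60 of them a depleted one, against 59.7% of the 278 far outliers among the 1829.

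ZFR, which encodes a zinc finger RNA-binding protein, shows a far place shared by both series. Its control peaks lay at -2 kb, -2 kb, 54.0 kb and 53.2 kb and its depleted peaks at -2 kb, 1.12 kb, 5.66 kb and 53.4 kb. The far peak was thus called at 30 and 40 min in control cells and at 40 min in depleted cells, within 0.798 kb.

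The annotation at the control outlier was mostly intronic. Of the 423 genes, 315 (74.5%) had it in an intron, 17 (4.02%) in an exon, 45 (10.6%) upstream of the TSS and 46 (10.9%) beyond the annotated end; over the 773 such genes among the 1829 the shares were 63.6%, 3.36%, 16.3% and 16.7%. Among the 123 far outliers, 83 were intronic, 5 exonic and 35 beyond the end, or 28.5% against 37.5%. Of those 35, 34 lay inside another protein-coding gene, 31 of them on the same strand; among the 1829 it was 93 of 98, 63 of them on the same strand. Judged by the listed width, 96 of all 132 far outliers lay inside their own gene, at a median of 57.7% of its width (58.0% for the 173 among the 1829), and 3 were within 5 kb of its end (8 of the 173). An annotated start of another transcript of the same gene, over 2 kb from the TSS used, lay within 2 kb of the outlier in 38 of the 423 genes (8.98%, against 8.15%).

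In 38 of the 646 genes (5.88%) all 4 depleted peaks lay beyond the end of the gene, against 9.19% of the genes orderly in both series and 13.8% of all 2298. In 83 genes (12.8%, against 19.9% of the 2298) all 4 depleted peaks lay over 40 kb from the TSS, in 493 all 4 lay within 40 kb, and in 70 they lay on both sides. MYO15A, the gene of an unconventional myosin known for hearing, ends 71.0 kb from its TSS. Its control peaks lay at 81.1 kb, 83.4 kb, 89.3 kb and 89.2 kb and its depleted peaks at 78.2 kb, 82.7 kb, 85.6 kb and 88.7 kb, and the control peak at 30 min was inside ALKBH5. SLC26A8, an anion transporter gene of the testis, ends 81.4 kb from its TSS and had control peaks at 110 kb, 112 kb, 116 kb and 115 kb, the 30-min one inside SRPK1, against 107 kb, 110 kb, 112 kb and 114 kb in depleted cells. ZNF385C ends 72.9 kb from its TSS, and its control peaks at 85.9 kb, 85.8 kb, 88.7 kb and 90.4 kb began inside the overlapping genes DNAJC7 and NKIRAS2. In these genes the called wave ran in a neighbouring gene in both series, and the coverage of the window, 1053 rpm for MYO15A in control cells, includes that neighbour.

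The depleted rate of the 646 genes had a median of 0.311 kb/min (quartiles 0.250 and 0.818), against 0.303 kb/min in the genes orderly in both series. It is the deposited least-squares slope through the 4 wave peaks, counted from the window start, and a point at 0. It was under 0.5 kb/min in 442 genes (68.4%). The 3 median depleted steps were, in order of time, 3.71, 1.94 and 1.86 kb. OSBPL2, which encodes a lipid transfer protein, moved least from 10 to 40 min, by 0.547 kb, with depleted peaks from 73.5 to 74.0 kb from the TSS, beyond the end of the gene, and a deposited rate of 1.53 kb/min. ANKH, a pyrophosphate transporter gene, and MAP3K20, a stress kinase gene, moved most, by 122 kb, because their depleted peak passed from 7.77 kb and 6.35 kb at 30 min to the window end at 40 min. The deposited control rate was negative in 74 of the 646 genes (11.5%, against 7.76% of the 1829). The slope over the 4 control peaks alone was negative in 160 (24.8%, against 26.5%), and a negative slope cannot be read as a speed. The authors' quality mark was set for 289 (44.7%) in the depleted series, against 40.9% of the genes orderly in both; in the control series no gene out of order carries it.

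At the control times that were not the outlier, the depleted peak lay nearer the TSS. In the 141 genes with 1 outlier time the depleted minus control distance had a median of -2.96 kb at 10 min (69 genes), of -1.53 kb at 20 min (119 genes), of -1.75 kb at 30 min (132 genes) and of -1.69 kb at 40 min (103 genes). The depleted peak was the nearer one in 79.7%, 79.0%, 72.7% and 68.9% of them. In the genes orderly in both series the medians were -1.32 kb, -1.31 kb, -1.42 kb and -1.74 kb, with 63.8%, 73.8%, 79.4% and 76.0% nearer. With swaps assigned, the medians over the 444 genes were -1.40 kb, -1.34 kb, -0.931 kb and -1.26 kb, with 62.8%, 74.2%, 68.6% and 69.8% nearer. The distances were thus smaller at every time than with 1 outlier time alone, most so at 10 and 30 min, and all of these are positions that the rule used. With 1 outlier time the quartiles at 30 min (-4.11 and 0.187 kb) and at 40 min (-7.71 and 0.138 kb) reach past 0. With swaps assigned the upper quartiles of 20, 30 and 40 min do so (0.045, 0.425 and 0.194 kb). A single library per time gives no error for these medians.

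What the genes are was described by width, structure, coverage and family. The order of the peaks used none of these, but the coverage minimum was part of the selection. Their median width was 107 kb, as in genes orderly in both series, against 91.3 kb in genes orderly in neither. The share of the 646 genes rose with width, from 24.1% of the well-covered genes under 80 kb over 25.5% (80 to 120 kb) and 33.8% (120 to 200 kb) to 36.7% at 200 kb or more. The median first intron was 19.6 kb long, against 20.2 kb in genes orderly in both and 13.2 kb in those orderly in neither. The canonical transcript had a median of 16 exons (15 over all 2298). The share was 28.9% at a lower coverage of 100 to 200 rpm, 27.9% at 200 to 400 rpm and 26.8% above, so it hardly moved with coverage. The median ratio of depleted to control coverage was 1.01, as over all 2298. RefSeq promoter sequences (GRCh38) around the gene start were found for 535 of the 646 genes and had a median GC content of 69.0%, against 67.3% over the 1877 of 2298 matched.

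By family, the share ran from 14.3% to 39.3% around the 28.1% of all well-covered genes. The lists below are small, and no test was made of any of them. Solute carriers had 11 of 28 (39.3%), protein kinases 33 of 86 (38.4%) and phosphatases 18 of 48 (37.5%). Small GTPases and their regulators had 22 of 68 (32.4%), ubiquitin ligases, conjugating enzymes and deubiquitinases 37 of 115 (32.2%) and cytoskeleton and motor genes 20 of 69 (29.0%). Transcription and RNA processing genes (26 of 93, 28.0%), trafficking and autophagy genes (21 of 76, 27.6%) and zinc finger genes (15 of 55, 27.3%) were at the common share. Chromatin genes had 16 of 67 (23.9%), and genes of DNA replication, repair and cohesin 7 of 49 (14.3%). Genes in none of these families had 421 of 1554 (27.1%).

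**Figure D5:**
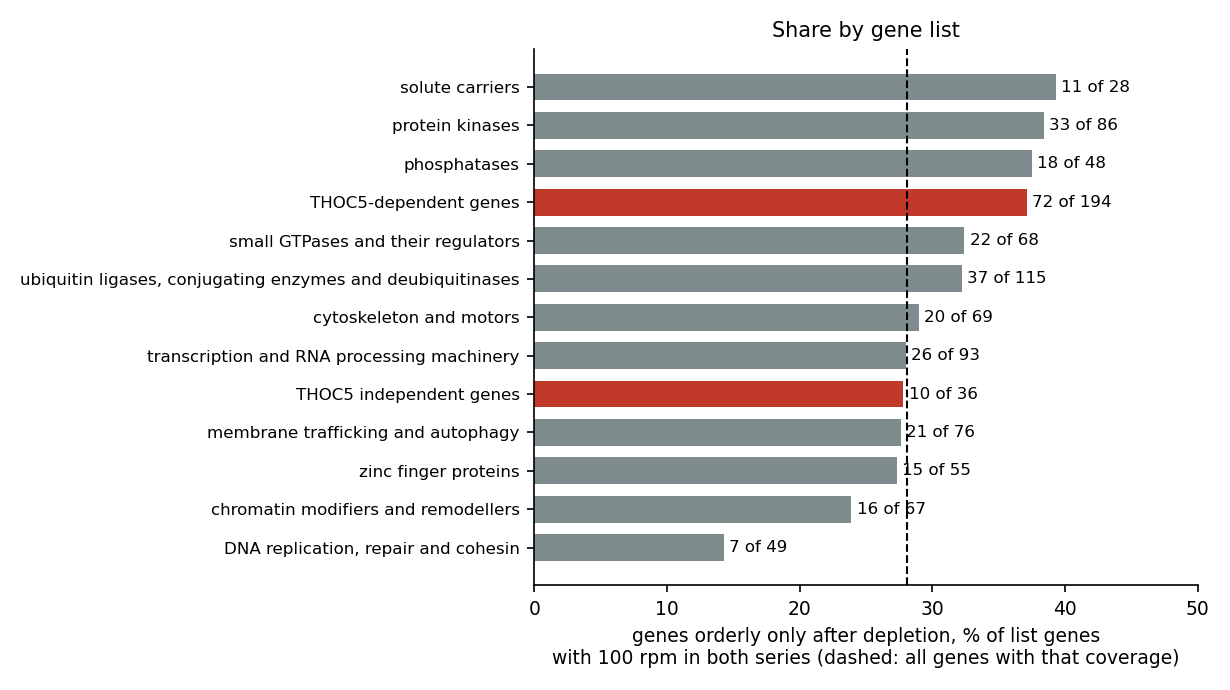
Percentage of the well-covered genes of each list that were orderly only after depletion, with the number of genes beside each bar and the dashed line at the 28.1% of all 2298 genes. Grey bars are families, red bars the study's own gene classes; DNA replication, repair and cohesin (7 of 49) is lowest and solute carriers (11 of 28) highest.

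Among the kinases, WNK1, which controls ion transport, had control peaks at 5.57 kb, 3.18 kb, 11.0 kb and 12.3 kb and depleted peaks at -2 kb, 5.35 kb, 8.42 kb and 9.57 kb. TLK2, a chromatin assembly kinase, had its break of 0.564 kb at 22.9 and 22.4 kb, and MARK3, a microtubule affinity kinase, a largest step back of 0.469 kb, from 20 to 30 min. Of the solute carriers, SLC7A1, a transporter of cationic amino acids, had control peaks at 5.23 kb, 7.45 kb, 11.7 kb and 8.74 kb and depleted peaks at 2.3 kb, 5.84 kb, 7.94 kb and 9.92 kb. Its 30-min control peak was ahead and the 40-min one behind the depleted course.

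Of the chromatin genes, ARID1A, a subunit of the BAF remodelling complex, had control peaks at 6.54 kb, 9.22 kb, 12.9 kb and 11.8 kb and depleted peaks at 5.15 kb, 8.14 kb, 9.08 kb and 10.3 kb. The control wave was ahead at all 4 times and broke the order only from 30 to 40 min. Of the transcription genes, AFF4, the scaffold of the super elongation complex, had control peaks at 95.5 kb, 10.5 kb, 13.0 kb and 12.0 kb and depleted peaks at -2 kb, 5.67 kb, 8.71 kb and 10.6 kb. Here both a far 10-min peak and a small step back at 40 min broke the order, and no single removal restored it.

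Of the 7 genes of replication and repair, XRCC5, which encodes the DNA end-binding protein Ku80, had control peaks at 7.92 kb, 6.31 kb, 37.4 kb and 7.88 kb and depleted peaks at 3.65 kb, 5.54 kb, 7.28 kb and 8.80 kb. POLE, the catalytic subunit of DNA polymerase epsilon, had control peaks at 15.7 kb, -2 kb, 19.6 kb and -2 kb and depleted peaks at -2 kb, 1.81 kb, 3.48 kb and 9.62 kb. The control peak of POLE was at the window start at 20 and 40 min, and that of XRCC5 stood apart at 30 min. Of the small GTPases, RAB7A, which acts at late endosomes, had a course whose control peaks at 41.4 kb, 40.9 kb, 42.8 kb and 42.9 kb and depleted peaks at 37.4 kb, 39.1 kb, 41.0 kb and 42.7 kb lay together at the same distance inside a 132 kb gene. Of the trafficking genes, SEC63, a subunit of protein translocation into the endoplasmic reticulum, had control peaks at 3.17 kb, 1.72 kb, 4.48 kb and 9.73 kb and depleted peaks at -2 kb, 4.07 kb, 7.53 kb and 9.51 kb.

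The study's own classes, chosen by it on other libraries of the same cells for a shift in mRNA 3′ end cleavage after THOC5 depletion, were counted in the same way. Of the THOC5-dependent genes 194 reached the coverage, and 72 of them (37.1%, against 28.1% of all) were orderly only after depletion, 43 in both series (22.2%, against 15.6%) and 11 only in control. Of the THOC5 independent genes 36 reached it, and 10 (27.8%) were orderly only after depletion and 8 (22.2%) in both. The share orderly in both series was thus also above that of all genes in both classes. Among the 72, the outlier time with swaps assigned was 10 min in 19, 20 min in 12, 30 min in 17 and 40 min in 8, beside 111, 119, 151 and 63 of the 646. This class holds OSBPL3, a lipid transfer protein gene of 185 kb on chromosome 7 (24796540 to 24981634, GRCh38). Its control peaks lay at 100.0 kb, 5.09 kb, 2.19 kb and 8.44 kb and its depleted peaks at 4.12 kb, 7.34 kb, 9.74 kb and 10.9 kb. The 10-min control peak was far inside the gene, and the 3 later control peaks lay behind the depleted ones. Of the 10 THOC5 independent genes, ATXN10, which encodes a cytoplasmic protein needed by neurons, and MAX, the dimer partner of MYC, had 4 control peaks in the same alternation as DIAPH1 but over shorter distances. For ATXN10 they lay at 27.0 kb, 4.91 kb, 24.5 kb and 6.62 kb, and for MAX at 12.9 kb, 7.40 kb, 14.6 kb and 10.8 kb. The depleted peaks ran from -2 to 5.57 kb in ATXN10 and from 3.23 to 9.92 kb in MAX, so that in both genes the control peaks of 10, 30 and 40 min lay beyond the last depleted peak.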

How the data were processed

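DRB/TTchem-seq of HEK293 cells was analysed in 8 libraries, 1 for each of 4 release times in shCtrl and shTHOC5 cells; the other samples of the series were not used here. The authors normalized coverage to sequencing depth, called wave peaks from 2 kb before to 120 kb after the TSS of non-overlapping protein-coding genes and deposited 1 table per series. The header of the coverage column says RPKM, but it sums to 1000000 over the genes and was read as RPM, as deposited by the authors, with 1 value per gene and series; how it was combined from the libraries, and the aligner of these libraries, are not given in the sources used here. The submitters' processing notes name GRCh38, Bowtie2 2.3.4.1, minimap2 and deepTools 2.0; the study's methods tie Bowtie2 and deepTools to its ChIP-seq and minimap2 to its Nanopore reads, which were not used here. The deposited rates are on another scale, kb/min, and the other deposited columns (wave positions in bp, the order column and the authors' mark, a score of 0 or 1) were used as they stand. Reads per library are unknown, and no precision can be derived from depth; the 4 positions of a gene come from separate libraries.

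The order column equalled the rank order of the peaks, and the deposited rate the slope over 5 points, in 4592 of 4592 genes of each series. Genes were sorted by strict order of the 4 peaks at a coverage minimum of 100 rpm. Far means over 40 kb from the TSS, and window end the last 1 kb. Symbols, exons and coordinates came from GENCODE release 44 (GRCh38); 4590 genes were found and 4416 had the listed width, 614 of the 646 among them. Only these entered the annotation and the sequence windows, read from GRCh38. Genes named were the 3 best-covered for each single outlier time, the 2 best-covered swaps, genes without a single outlier and genes of each place, up to 3 per list, those at the thresholds, those with the largest and smallest depleted travel, and 1 gene named in the paper; not all are described, and 1 gene at the threshold and some sequence windows are not reported here. KANSL1, CDC14A and AGPAT4 were chosen after their values were seen. Families are whole-symbol patterns, and the THOC5 classes came from the study's supplementary gene lists, matched through GENCODE and older symbols. The members and lists were chosen with earlier results of these data known. Alternatives changed the coverage minimum, the treatment of equal positions, the step size, the times used and the limits of each place. The functions were tested on simulated data. Calculations used Python 3.11.15, pandas 2.3.3 and NumPy 2.4.6, and plots matplotlib 3.10.9.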

Additional observations from a re-analysis of the deposited data

How the results depend on the processing

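Of 83 values under another setting, 59 stayed within their range and 24 moved. The range was 1.5 times a count or the 95% interval of a share or median over genes. Only the 8 values on the distance between the series could be called reversed, and 0 were. Some of these 8 were shares of genes with the depleted peak nearer. They were judged only by whether the majority matched the sign of the median, a match that is nearly given. The 646 genes became 366 at a coverage minimum of 200 rpm, 1014 with no minimum, 311 when the first depleted peak had to lie at least 2 kb from the window start, and 209 when a control step had to lead back by over 20 kb; the last setting and a step back of over 1 kb (444 genes) were chosen after seeing the data. Judged without the 10, 20, 30 or 40 min time in turn, the count was 651, 604, 505 and 582. The mirror count of 110 became 70 at 200 rpm, 184 with no minimum, 170 without the 10-min time and 187 without the 20-min time. Assigning swaps by distance put the 10, 20, 30 and 40 min shares at 17.2%, 18.4%, 23.4% and 9.75%, and 30 min instead of 10 min then led. The definition of a single outlier favours 10 and 40 min, and the assignment of swaps favours 20 and 30 min. With equal neighbours in order the share with no single outlier was 25.1%, and at 200 rpm that of 40 min was 3.55%. Far outliers were 29.8% and near ones 58.2% with far over 60 kb, 55.7% and 32.9% at 200 rpm, and 29.7% and 55.0% with swaps assigned, where the window start held 10.4% and the window end 4.95%; this setting too was chosen after seeing the data. With 500 bases to each side of the outlier 10.9% touched an exon and 67.6% lay in introns only. The cause of these changes was not tested.

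No paired analysis was possible because the labels of the 8 libraries, 1 per condition and time, give no replicate number. The main limits are these: no replicate exists, the depth is unknown, a wave peak is 1 called position with no error, and far peaks beyond a gene's end carry the signal of its neighbours.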
